A study of Mus musculus with 2 samples.

Results

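Serine synthesis and the folate one-carbon pathway were examined in regenerating livers through 9 enzyme genes, Phgdh, Psat1, Psph, Shmt1, Mthfd1, Aldh1l1, Shmt2, Mthfd2 and Mthfd1l. They were chosen as the enzymes that make serine from glycolytic carbon and carry its one-carbon unit on folate, and each was found by its symbol, as 1 row, among 33224 gene symbols of the deposited table. Hepatic RNA came from male C57BL/6 mice, wild type (WT) or PPARβ-null (KO, lacking the nuclear receptor encoded by Ppard), at 4 months of age by the labels and 48 hr after partial hepatectomy (PH) by the paper's text. No other allele or agent was named for either group, and the labels did not name a promoter or cell type that limits the deletion. RNA-sequencing gave 1 library per genotype, so no value carries an error between mice, no test between genotypes was possible, and every difference below compares these 2 libraries.

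Serine is made from 3-phosphoglycerate in steps catalysed in turn by Phgdh, Psat1 and Psph. Serine hydroxymethyltransferase, cytosolic (Shmt1) or mitochondrial (Shmt2), moves a carbon from serine to tetrahydrofolate and leaves glycine. Mitochondrial Mthfd2 and Mthfd1l oxidize that carbon and release it as formate, cytosolic Mthfd1 puts formate back on folate, and Aldh1l1 removes the formyl group as carbon dioxide. The carbon is used to build purines and thymidylate and, through methionine, for methylation, and the liver is a major site of folate metabolism.

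All 9 enzyme mRNAs were lower in the KO library than in the WT library, by 1.64-fold for Mthfd1 to 6.47-fold for Mthfd2. The largest ratios belonged to Mthfd2, Psat1 and Phgdh, which were at low levels in both livers, and the smallest to Mthfd1, Shmt1 and Shmt2, which were abundant. Aldh1l1 combined the highest level of the 9 with a 3.06-fold difference. All 9 passed 1.5-fold, and none was higher in KO liver. Among 15727 genes whose mean over both libraries reached 0.1 FPKM, a filter that all 9 members passed, Phgdh only through its WT level, 74.8% were lower in KO by any amount, 26.0% were more than 1.5-fold lower and 6.05% more than 1.5-fold higher in KO. FPKM is fragments per kilobase of transcript, scaled to the mapped fragments of the library, so levels can be compared between genes. The median gene of 11723 whose mean reached 1 FPKM was 1.18-fold lower in KO, 19.9% were more than 1.5-fold lower and 4.20% more than 1.5-fold higher. Past 2-fold lower were 6 of the 9 members, of which Phgdh and Mthfd1l did not reach that mean, beside 8.69% of these 11723 genes. After the KO values were scaled so that the median log2 ratio of these genes was 0, 11862 genes had a mean of at least 1 FPKM. Of them, 12.0% were lower and 7.49% higher by that fold, and under the 0.1 FPKM filter 17.4% and 10.0%. With that scaling 7 of the 9 members stayed past 1.5-fold, all but Shmt1 and Mthfd1. Shmt2 only just did, with a KO/WT ratio of 0.660.

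In the serine synthesis branch, Phgdh, the first and committing enzyme, was barely detected. It had 0.251 FPKM in WT and 0.0469 FPKM in KO liver, about 25.2 and 4.93 fragments on its transcript of 1893 bases. The WT/KO ratio was 5.36, with a 95% counting interval of 2.01 to 18.1. That interval came from a fragment count estimated from the FPKM, and with the shortest annotated coding transcript in place of the longest it ran from 0.71 to 161 and included equality. Phgdh is also uncertain because the mouse genome (NCBIM37) holds 20 further stretches of at least 300 bases that match its transcript at 90.7% to 98.8% identity, 12 of them at least 1500 bases long, and how the counting divided shared reads is not given in the sources used here. The closest copy, Gm7901 on chromosome 8, was listed at 0.0759 FPKM in WT and 0.00445 FPKM in KO. No such stretch was found outside the gene for any of the other 8 members.

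Psat1, the transaminase of the second step, had 1.77 FPKM in WT and 0.312 FPKM in KO liver. Its WT/KO ratio was 5.68, with a counting interval of 4.13 to 7.98. Psph, the phosphatase that releases serine, was the most abundant of this branch at 8.03 FPKM in WT and 2.75 FPKM in KO, a ratio of 2.92 (2.51 to 3.40). Its row shared a locus with that of the neighbouring chaperonin gene Cct6a, which was listed on its own at 56.1 and 41.8 FPKM. Summed over the 3 genes, the branch held 10.1 FPKM in WT and 3.11 FPKM in KO liver.

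Among the cytosolic folate enzymes, Shmt1 had 51.6 FPKM in WT and 30.9 FPKM in KO, a ratio of 1.67 (1.61 to 1.73). Mthfd1, which carries 3 activities of folate interconversion on a single protein, had 63.4 FPKM in WT and 38.5 FPKM in KO, a ratio of 1.64 (1.60 to 1.69). These are the members whose ratios came closest to the 1.18-fold of the median gene, and 20.0% and 20.7% of the 15727 genes had a lower KO/WT ratio than Shmt1 and Mthfd1. Aldh1l1 stood apart from both. It had 516 FPKM in WT and 168 FPKM in KO, a ratio of 3.06 (3.03 to 3.10), and 6.16% of genes had a lower KO/WT ratio. Aldh1l1 alone made up 69.0% of the summed FPKM of the 9 members in WT liver and 56.4% in KO liver. An antisense gene within it, Gm15756, was at 1.48 and 0.687 FPKM, and Smcr8, which overlaps Shmt1 by 184 bases on the other strand, was at 6.75 and 6.13 FPKM. Whether the counting used strand is not given in the sources used here.

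In the mitochondrial branch, Shmt2 had 102 FPKM in WT and 57.0 FPKM in KO, a ratio of 1.79 (1.74 to 1.84). Mthfd2, the dehydrogenase and cyclohydrolase known for its high level in embryonic and dividing cells, had 3.99 FPKM in WT and 0.616 FPKM in KO, a ratio of 6.47 (5.03 to 8.43). This was the largest ratio of the 9, but its counting interval overlapped those of Psat1 (4.13 to 7.98) and Phgdh (2.01 to 18.1). Of the 15727 genes, 2.68% had a lower KO/WT ratio than Mthfd2. Mthfd1l, the synthetase that releases formate, had 0.756 FPKM in WT and 0.277 FPKM in KO, a ratio of 2.73 (1.99 to 3.77). The branch therefore held an abundant enzyme with a small difference beside scarce ones with larger differences.

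**Figure D1:**
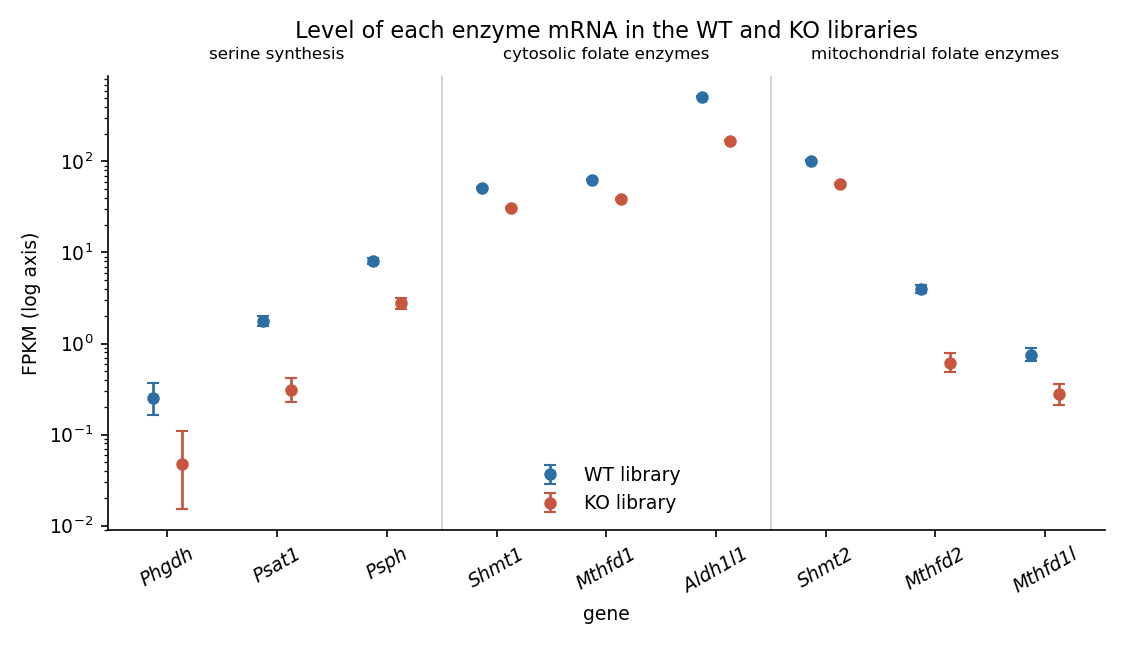
FPKM of each enzyme mRNA (log axis) in the WT library (blue) and the KO library (red), 1 library per genotype, with bars for the 95% counting interval, which covers counting error only. The KO point lies below the WT point for all 9 genes, and levels run from 0.0469 FPKM for Phgdh in KO to 516 FPKM for Aldh1l1 in WT.

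The order of the 9 levels was the same in both libraries, from Aldh1l1 through Shmt2, Mthfd1, Shmt1, Psph, Mthfd2, Psat1 and Mthfd1l to Phgdh. In WT liver no neighbours in that order had overlapping counting intervals. In KO liver Psat1 at 0.312 FPKM and Mthfd1l at 0.277 FPKM overlapped, and the other neighbours did not. An FPKM of 1 on a transcript of 1 kb rested on an estimated 53.0 fragments in the WT and 55.5 fragments in the KO library, so the counting error was small for the abundant members and wide for Phgdh. Of the 9 members, 7 had a mean of 1 FPKM or more and 5 had at least 1 FPKM in both libraries, since Mthfd2 and Psat1 reached that mean only through their WT level.

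**Figure D2:**
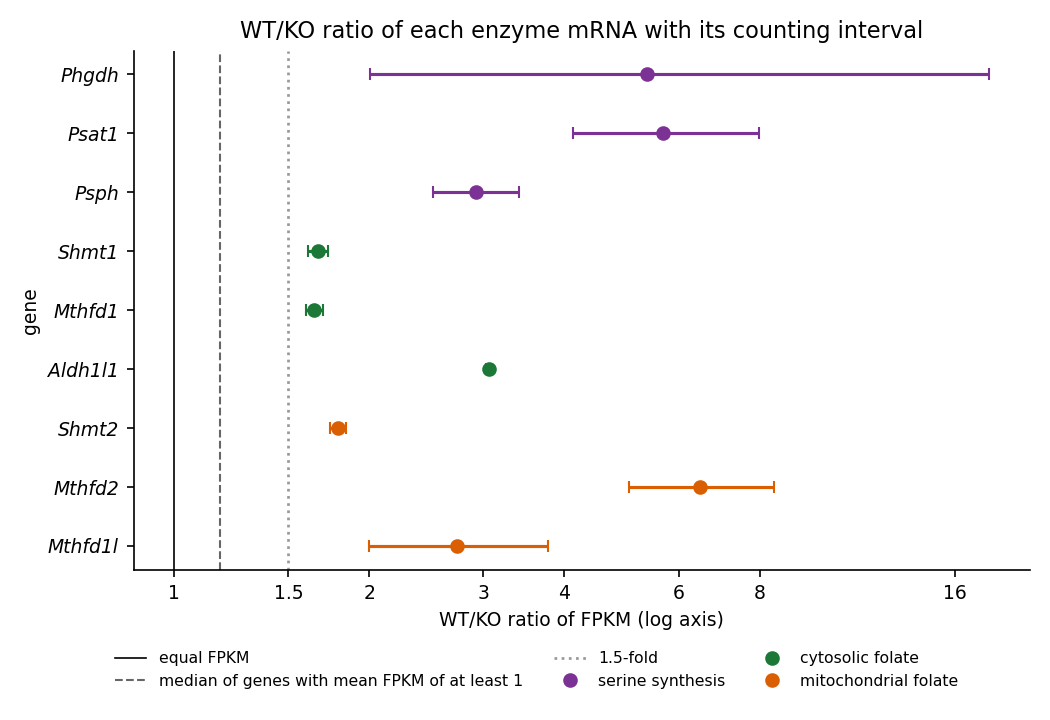
WT/KO ratio of FPKM (log axis) for each member, coloured by branch, with the 95% counting interval as a bar. The dashed line marks the median of genes whose mean reached 1 FPKM (1.18-fold lower in KO), the dotted line marks 1.5-fold, and all 9 points lie to its right, from 1.64 for Mthfd1 to 6.47 for Mthfd2.

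Ratios of 1 enzyme to another within a library do not depend on how the libraries were scaled, and they showed which members differed unequally. Shmt2 exceeded Shmt1 by 1.98-fold in WT and 1.84-fold in KO, so the mitochondrial and cytosolic isoenzymes kept nearly the same proportion. Unlike this pair, Mthfd1 exceeded Mthfd2 by 15.9-fold in WT and 62.5-fold in KO, and Aldh1l1 exceeded Mthfd1 by 8.14-fold in WT and 4.37-fold in KO. Psat1 exceeded Phgdh by 7.06-fold in WT and 6.65-fold in KO. The counting interval of Phgdh in KO was 0.0151 to 0.110 FPKM, so whether that proportion was kept cannot be told. Mthfd2l, the other mitochondrial dehydrogenase of this step, had 1.02 FPKM in WT and 0.742 FPKM in KO. This was 0.256 of the Mthfd2 level in WT and 1.20 times the Mthfd2 level in KO. The KO value of Mthfd2l lay inside the counting interval of Mthfd2 in KO, 0.482 to 0.777 FPKM, so their order there was not resolved.

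The remaining genes of serine, glycine and folate metabolism and their regulators were less uniform. Of 61 such genes, 59 reached a mean of 0.1 FPKM, and 20 of these (33.9%) were more than 1.5-fold lower and 3 (5.08%) more than 1.5-fold higher in KO, beside 26.0% and 6.05% of all genes under the same filter. With the scaling to a median of 0, 16 were lower and 6 higher, beside 17.4% and 10.0% of all genes. Their median log2 KO/WT on the log2(FPKM + 0.1) scale was -0.37, beside -0.25 for all 15727 genes and -1.26 for the 9 members. This scale understates the change of low genes, and no test was run on any list.

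In folate interconversion outside the 9 members, 4 of 7 detected genes were lower in KO and 3 higher, beside 74.8% of all genes lower. Fpgs, which adds the glutamate tail that keeps folate in cells, had 50.5 FPKM in WT and 77.3 FPKM in KO, 1.53-fold higher in KO. None of the 7 detected genes was more than 1.5-fold lower, and the most abundant, Ftcd of histidine breakdown, had 140 and 97.4 FPKM. Of 5 folate transport genes 2 were more than 1.5-fold lower and none higher, beside 26.0% and 6.05% of all genes. Folr1, among those lower, passed the 0.1 FPKM filter only through its WT level, with 0.157 FPKM in WT and 0.0614 FPKM in KO. Folr2, a folate receptor, had 2.94 and 1.58 FPKM, and the proton-coupled transporter Slc46a1, the most abundant, had 18.9 and 20.2 FPKM.

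The genes that spend folate carbon on nucleotides were lower in KO liver in 4 of 4 cases, as were 74.8% of all genes. Tyms, which makes thymidylate, had 19.8 FPKM in WT and 3.01 FPKM in KO, 6.58-fold lower in KO. The purine synthesis enzymes Gart and Atic stayed within 1.5-fold, at 12.9 and 9.33 FPKM for Gart and 12.9 and 8.98 FPKM for Atic. Thus Tyms differed about as much as Mthfd2, whereas Gart and Atic differed less than any of the 9 members.

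Among genes of glycine cleavage and choline-derived carbon, all 11 were lower in KO, as were 74.8% of all genes, and the 3 that passed 1.5-fold were a share near the 26.0% of all genes. Gnmt, which consumes methyl groups to make sarcosine, had 1410 FPKM in WT and 558 FPKM in KO, a ratio of 2.53. Sardh, which returns that carbon to folate, had 168 and 106 FPKM, and Gldc, the glycine decarboxylase, had 67.8 and 43.7 FPKM. Scaling KO to a median of 0 took Sardh and Gldc below 1.5-fold. The most abundant genes of these lists were Bhmt, at 1708 FPKM in WT and 1454 in KO, and Gcsh, at 63.3 and 48.9 FPKM. The direction of Bhmt turned under that scaling, to a KO/WT ratio of 1.01. That of Dmgdh, another of the 11, turned as well, since its KO/WT ratio of 0.881 as deposited was nearer to equality.

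Of 11 detected genes that use or interconvert serine and glycine, 4 were more than 1.5-fold lower and none higher, beside 26.0% and 6.05% of all genes. Under the scaling to a median of 0 Glyctk passed 1.5-fold higher with a KO/WT ratio of 1.62 and Cbs just passed it. Cth, the last enzyme of cysteine synthesis from serine, had 667 FPKM in WT and 136 FPKM in KO, a ratio of 4.91. Sds, which degrades serine to pyruvate, had 173 and 81.4 FPKM. Gcat of threonine breakdown had 29.6 and 15.2 FPKM, and Sptlc2, which starts sphingolipid synthesis from serine, had 14.2 and 7.46 FPKM. These 4 differed in the same direction as the enzymes of serine synthesis, and the other 7 stayed within 1.5-fold in the FPKM as deposited. Of 6 transporters, 3 were more than 1.5-fold lower, beside 26.0% of all genes. They were Sfxn1, a mitochondrial serine carrier, at 46.4 and 22.3 FPKM, the neutral amino acid carrier Slc38a2 at 52.7 and 32.4 FPKM, and Slc1a5 at 3.00 and 1.61 FPKM. Slc1a4, another serine carrier, went the other way with 3.73 FPKM in WT and 6.15 FPKM in KO. Under the scaling to a median of 0, Slc38a2 fell below 1.5-fold and Slc6a9, a glycine transporter, passed it in the higher direction with a KO/WT ratio of 1.63.

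Among the regulators, Atf4, the transcription factor known to drive serine synthesis genes under amino acid shortage, had 57.5 FPKM in WT and 45.6 FPKM in KO, 1.26-fold lower beside 1.18-fold for the median gene. Of the 10 genes of Atf4 and its known targets, 4 were more than 1.5-fold lower in KO and none higher, beside 26.0% and 6.05% of all genes. Asns, which makes asparagine, had 5.30 FPKM in WT and 1.45 FPKM in KO, a ratio of 3.64, and Sesn2 had 2.71 and 1.53 FPKM. Cebpb, the most abundant of this list, had 75.8 and 59.8 FPKM. Of 5 other regulators 2 passed 1.5-fold, Nfe2l2 at 29.9 and 19.9 FPKM and the pyruvate kinase gene Pkm2 at 11.9 and 6.50 FPKM, and Nfe2l2 no longer did under the scaling to a median of 0.

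**Figure D3:**
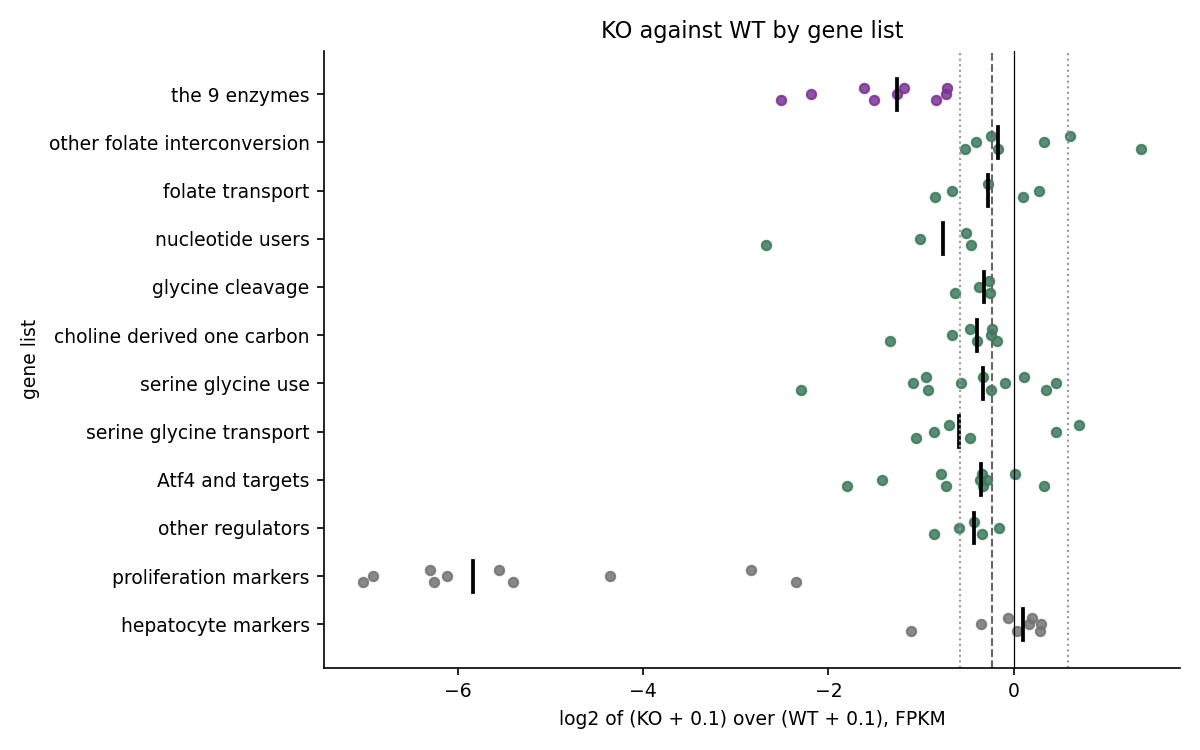
Log2 of KO over WT, each FPKM plus 0.1, for every gene whose mean reached 0.1 FPKM (points) by list, with the list median as a black bar. The dashed line is the median of genes whose mean reached 1 FPKM, dotted lines mark 1.5-fold, and the 9 enzymes have a median of -1.26 beside -5.84 for proliferation markers and 0.10 for hepatocyte markers.

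Most markers of dividing cells had larger ratios than the enzymes, although Pcna lay within the range of the enzymes. All 10 proliferation markers were more than 1.5-fold lower in KO, by 5.13-fold for Pcna to 360-fold for Ccnb1, their summed level was 279 FPKM in WT and 17.4 FPKM in KO, and none was at 0. Hepatocyte markers summed to 14250 FPKM in WT and 14435 FPKM in KO, and 1 of 8, the urea cycle enzyme Cps1, passed 1.5-fold lower. Of all genes whose mean reached 0.1 FPKM, 26.0% were more than 1.5-fold lower in KO. Of the markers of other liver cells, 5 of 7 macrophage, 5 of 6 endothelial, 2 of 6 stellate and 3 of 5 bile duct genes were more than 1.5-fold lower in KO in the FPKM as deposited. The stellate share was near that of all genes. Summed marker levels were 42.4 and 27.7 FPKM for macrophages, 48.5 and 34.6 FPKM for endothelial cells, 87.8 and 59.9 FPKM for stellate cells, and 29.8 and 25.7 FPKM for bile duct cells, and none of these markers was at 0. Lymphocyte markers summed to 0.628 and 0.323 FPKM, neutrophil markers to 12.9 and 6.91 FPKM with Ly6g and Mpo listed at 0, and erythroid markers to 295 and 252 FPKM. The part of any of these differences in the values of the 9 enzymes was not tested, and in bulk liver fewer cells of a type and less RNA per cell cannot be told apart. Ppard itself was at 2.67 FPKM in WT and 2.42 FPKM in KO, a value over the whole locus that does not check the deletion, since the deleted part is not given in the labels.

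The start regions of the 9 genes were read from RefSeq (GRCm38.p6), which held 10 entries for them, 2 for Psat1. Each matched NCBIM37 along its whole length at a single place. The 250 bases before each start site were searched on both strands for 6 words, chosen with the values known. For Psat1, Shmt1 and Aldh1l1 the gene in the annotation GENCODE vM1 began upstream of all bases searched. Their outermost annotated starts were therefore not covered. The CCAAT box, which is bound by NF-Y, was found in 7 of 9 genes and in 37.5% of 27025 genes with an entry. GGGCGG, the GC box of Sp1, was found in 6 of 9 and in 35.4% of genes, or 61.0% of the 9689 genes with an entry whose mean reached 0.1 FPKM, against 40.6% of these for the box of NF-Y. AGGTCA, the core of nuclear receptor elements, was found in Mthfd1 and Aldh1l1, and in 15.8% of genes. No member held TGATGNAA, the element bound by Atf4 with C/EBP factors (3.91% of genes), CACGTG, the E-box of Myc (6.86%), or any of the E2f words TTTCCCGC, TTTGGCGC, TTTCGCGC and TTTGCCGC (2.16%). These are matches of letters in a short window, not sites of binding, and elements outside it were not searched.

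The 5 stretches below are shown because they belong to the members with the largest ratios (Mthfd2, Psat1, Phgdh), to the most abundant member (Aldh1l1) and to the member without any of the 6 words (Shmt2). They are in the direction of transcription, without bases annotated as exon in GENCODE vM1, and capitals mark the CCAAT box on either strand. On NCBIM37 they lie at chr6:83267601-83267848 (minus strand), chr19:15999550-15999799 (minus), chr3:98143914-98144142 (minus), chr6:90500537-90500782 (plus) and chr10:126959501-126959750 (minus).
Mthfd2: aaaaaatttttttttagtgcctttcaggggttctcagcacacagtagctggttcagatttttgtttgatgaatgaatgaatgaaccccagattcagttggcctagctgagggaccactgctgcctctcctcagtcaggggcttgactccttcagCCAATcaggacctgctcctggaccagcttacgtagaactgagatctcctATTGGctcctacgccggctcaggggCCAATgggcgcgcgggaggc
Psat1: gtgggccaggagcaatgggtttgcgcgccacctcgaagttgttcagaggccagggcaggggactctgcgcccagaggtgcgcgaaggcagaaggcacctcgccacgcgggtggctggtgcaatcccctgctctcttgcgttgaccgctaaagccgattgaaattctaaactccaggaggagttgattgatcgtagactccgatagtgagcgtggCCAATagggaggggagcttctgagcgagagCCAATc
Phgdh: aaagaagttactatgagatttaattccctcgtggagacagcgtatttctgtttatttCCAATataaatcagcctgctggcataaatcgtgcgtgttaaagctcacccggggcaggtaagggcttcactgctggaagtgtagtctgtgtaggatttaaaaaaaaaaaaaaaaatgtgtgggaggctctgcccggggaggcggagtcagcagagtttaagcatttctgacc
Aldh1l1: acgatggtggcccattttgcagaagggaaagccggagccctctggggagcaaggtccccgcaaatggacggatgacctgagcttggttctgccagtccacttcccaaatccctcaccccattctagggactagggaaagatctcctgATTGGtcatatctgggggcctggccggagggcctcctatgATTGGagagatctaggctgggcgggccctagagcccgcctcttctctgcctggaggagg
Shmt2: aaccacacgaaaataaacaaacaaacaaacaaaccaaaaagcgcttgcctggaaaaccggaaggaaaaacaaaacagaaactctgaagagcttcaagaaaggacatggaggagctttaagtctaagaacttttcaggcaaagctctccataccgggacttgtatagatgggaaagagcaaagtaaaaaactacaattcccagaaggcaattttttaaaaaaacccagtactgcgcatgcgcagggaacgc

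Mthfd2 held 3 CCAAT boxes, which began 96, 47 and 22 bases before the start site. Psat1 held 2 at its upstream start site, 36 and 6 bases before it, and Aldh1l1 held 2, at 103 and 63 bases. Phgdh held 2, at 193 and 23 bases, the second of which reaches into an annotated exon and is not printed whole. Psph held 2, at 78 and 48 bases, Shmt1 held 1 at 47 bases and Mthfd1 held 1 at 69 bases, while Shmt2 and Mthfd1l held none. No relation between these boxes and the ratios was tested.

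**Figure D4:**
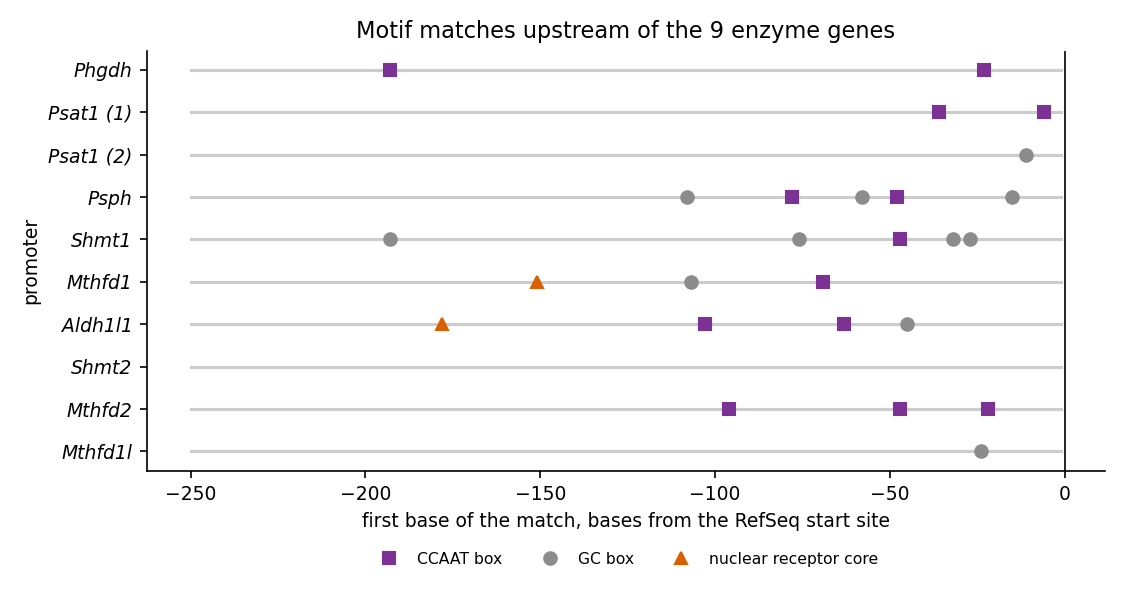
Place of each motif match, as its first base in bases from the RefSeq start site, in the 250 bases upstream of the 9 genes, with both Psat1 start sites. Squares are CCAAT boxes, circles GC boxes and triangles nuclear receptor core words, and squares stand in 7 of the 9 genes and in neither Shmt2 nor Mthfd1l.

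In the annotation GENCODE vM1 on NCBIM37, Phgdh lies on chromosome 3 at 98117093-98143913, Psat1 on chromosome 19 at 15979168-16021827 and Psph on chromosome 5 at 130271434-130293129, all on the minus strand. Shmt1 lies on chromosome 11 at 60601606-60625220 (minus), Mthfd1 on chromosome 12 at 77356219-77420807 (plus) and Aldh1l1 on chromosome 6 at 90436421-90550197 (plus). Shmt2 lies on chromosome 10 at 126954195-126959491, Mthfd1l on the same chromosome at 6179460-6373423 and Mthfd2 on chromosome 6 at 83255685-83267600, all on the minus strand. The FPKM of a gene is a value for its whole locus, over 1 annotated transcript for Shmt2 and up to 11 for Shmt1, and isoforms were not analysed here.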

How the data were processed

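Hepatic RNA of WT and KO mice was sequenced as 1 library each on an Illumina HiSeq, as single end reads by the methods and paired ends by the labels. The authors aligned reads to mm9 with TopHat and used Cufflinks and Cuffdiff, and the submitters' processing notes name version 1.3.0 of Cufflinks and 2.0.0 of TopHat2. Promoters came from RefSeq tables, and genes from GENCODE vM1. The deposited table gives the authors' FPKM for 38016 loci, and its columns of fold change, statistic and p-value, which compare the libraries, were not used. The 21 loci marked HIDATA were left out, 2302 had no symbol, and rows of a symbol were summed. The members and lists were chosen with earlier results of these data known. Named genes are the members, list genes past 1.5-fold whose mean reached 1 FPKM, and the most abundant gene of each list. Atf4, Gart, Atic, Mthfd2l, Glyctk, Cbs and Slc6a9 were added after their values were seen. Folr1 and Dmgdh are also named, though they do not meet this rule. Some genes that meet this rule are left out of the text.

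Log2 ratios of lists used a pseudocount of 0.1 FPKM. The FPKM of 1 fragment was taken from single-exon genes of at least 300 bases whose low values pile up at 1 fragment. It gave 95% counting intervals (exact, longest coding transcript), which cover counting error only. Transcripts were matched to NCBIM37 with BLAST+ 2.17.0. Values were computed with Python 3.11.15, pandas 2.3.3 and scipy 1.17.1. The steps were tested on simulated data.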

Additional observations from a re-analysis of the deposited data

How the results depend on the processing

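No value could be checked by leaving out a library, and no paired analysis was possible because there was 1 library per genotype. All 9 members were lower in KO, and none was past 1.5-fold higher, under each scaling and each handling of rows. The number past 1.5-fold lower was 9 after scaling to equal sums and 7 after scaling to equal upper quartiles or to a median of 0. The members' median log2 ratio ran from -0.83 with a pseudocount of 1 to -1.54 with 0.01. The median of the other genes of serine, glycine and folate metabolism moved from -0.37 to -0.17 with equal upper quartiles and to -0.13 with centring. The share of all genes more than 1.5-fold lower was 19.9%, and it moved to 18.3% with equal sums, 12.8% with equal upper quartiles, 12.0% with centring, 28.6% for genes above 0 in both libraries, 14.8% for a mean FPKM of at least 5, and 8.69% past 2-fold. Depth limited Phgdh most, whose ratio rested on about 4.93 fragments in KO.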
